A study of Mus musculus with 4 samples.

Results

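The insulin-like growth factor (IGF) family was followed here through its 10 measured members, the ligands Igf1 and Igf2, the receptors Igf1r and Igf2r, and the binding proteins Igfbp2 to Igfbp7. They were the non-control probes of the array files whose gene name is one of these symbols, which gave 20 probes for 10 of the 27745 gene names on the array. IGF1 and IGF2 are secreted hormones that act through IGF1R, a receptor tyrosine kinase coupled to the PI3K-AKT and MAPK pathways. IGF2R carries IGF2 to the lysosome for degradation and has no kinase. The binding proteins IGFBP2 to IGFBP6 hold the ligands in the extracellular space with high affinity, delaying, storing or targeting them until proteases release them. IGFBP7 is a related secreted protein that binds IGFs weakly. Embryonic fibroblasts are mesenchymal cells that make many of these proteins, and Igf2 is an imprinted growth factor of the embryo.

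The measurements were 4 microarrays of total RNA with 1 dye, 1 array per condition, of mouse embryonic fibroblasts (MEFs) at 2 oxygen levels. Four-factor MEFs carried the introduced reprogramming factors Oct3/4, Sox2, Klf4 and c-Myc, and were cultured for 72 hours under 5% or 21% O2; their labels give day 4. Untransduced MEFs were cultured for 10 days under 5% or 21% O2. The labels give neither a strain nor a vector, and the cultures were measured in bulk, so that fewer cells of a type and less RNA per cell cannot be told apart. With 1 array per condition differences between arrays carry no p-value and no replicate spread. Levels are log2 of processed signal over the 75th percentile of the same array, so 0 is a probe at that percentile, and they are compared between arrays for the same probe only. A gene was counted as different when its brightest probe was well above background on both arrays and at least 2-fold apart, which is 1 log2 unit. The precision of a single spot is known from probes printed several times: the difference of 2 spots had an SD of 0.17 log2 units between the four-factor arrays and of 0.10 between the untransduced arrays. That is the error of a spot, not of a culture.

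Well above background were 68.4% and 68.1% of probes in four-factor MEFs at 5% and 21% O2, and 58.3% and 57.1% in untransduced MEFs at 5% and 21% O2. No spot was saturated. Each culture had its own slide and scan, so each oxygen comparison lay within 1 slide; between cultures, slide, scan, days of growth and transduction cannot be told apart. Pou5f1, the gene of Oct3/4, was well above background only on the four-factor arrays, at least 30.5-fold higher at 5% O2 and at least 20.4-fold at 21% O2. Myc was higher there by 4.17 and 2.59 log2 units at 5% and 21% O2, in 2 of its 3 probes. The probes for Klf4 and Sox2 were lower in the cells labelled four-factor, with differences of -1.70 and -1.14 for Klf4 at 5% and 21% O2; Sox2 differed by -2.82 at 5% O2 and was at least 5.14-fold lower at 21% O2. Whether these probes measure the introduced copies was not tested. All 13 fibroblast markers, Col1a1, Col3a1 and Pdgfra among them, were well above background on every array.

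The sequences upstream of 4 members are shown because these members contrast in the oxygen comparisons. Igfbp4 and Igfbp6 were the members at least 2-fold higher at 5% O2 in untransduced MEFs. Igfbp3 lay furthest from 0 at 5% O2 in four-factor MEFs, on the lower side, and Igf2r moved least over both cultures. Each is the 250 bases before the RefSeq transcription start on assembly GRCm38.p6, read 5′ to 3′ on the gene's strand. The Igfbp4 window lies at chr11:99040994-99041243, plus strand, and Igfbp6 at chr15:102143936-102144185, plus strand. The Igfbp3 window lies at chr11:7213924-7214173, minus strand, and Igf2r at chr17:12769707-12769956, minus strand. Capitals mark ACGTG or GCGTG on either strand, the core letters of the hypoxia response element bound by hypoxia-inducible factors, and CACGTG reads as ACGTG on both strands.
Igfbp4: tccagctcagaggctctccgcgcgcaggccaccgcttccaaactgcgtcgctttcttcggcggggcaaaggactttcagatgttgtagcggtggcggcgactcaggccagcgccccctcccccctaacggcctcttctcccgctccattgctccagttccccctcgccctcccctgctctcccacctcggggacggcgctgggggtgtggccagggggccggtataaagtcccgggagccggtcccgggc
Igfbp6: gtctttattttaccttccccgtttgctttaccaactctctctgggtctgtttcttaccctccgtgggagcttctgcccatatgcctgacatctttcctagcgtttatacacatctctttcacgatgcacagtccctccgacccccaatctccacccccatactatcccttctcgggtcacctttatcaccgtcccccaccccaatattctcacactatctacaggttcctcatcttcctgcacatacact
Igfbp3: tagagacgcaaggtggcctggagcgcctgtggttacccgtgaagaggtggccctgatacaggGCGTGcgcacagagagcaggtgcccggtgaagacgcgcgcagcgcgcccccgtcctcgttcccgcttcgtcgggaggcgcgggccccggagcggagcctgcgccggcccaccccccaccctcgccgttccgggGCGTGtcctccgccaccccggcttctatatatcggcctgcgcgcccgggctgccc
Igf2r: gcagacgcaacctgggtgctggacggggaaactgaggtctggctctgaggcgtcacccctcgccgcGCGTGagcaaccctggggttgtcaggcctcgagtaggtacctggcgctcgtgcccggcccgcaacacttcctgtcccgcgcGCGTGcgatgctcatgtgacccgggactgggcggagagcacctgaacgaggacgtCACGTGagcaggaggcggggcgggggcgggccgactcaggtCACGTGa
Neither letter run occurs in the Igfbp4 or the Igfbp6 window. Igfbp3 has 2 matches to GCGTG. Igf2r has 4 matches to ACGTG, which are the strands of 2 CACGTG stretches, and 2 to GCGTG. Of the 10 members, 7 have either run in at least 1 window, and Igfbp4, Igfbp5 and Igfbp6 have none. Igf2 has 4 windows and Igfbp2 has 2, so by window the count is 7 of 14. Over 32851 promoter windows of the same length 38.6% hold either run, 16.6% ACGTG and 28.2% GCGTG. These letter matches are a description and were not tied to binding of any factor.

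Both ligands were lower in four-factor than in untransduced MEFs at both oxygen levels, and their oxygen differences had opposite signs in the 2 cultures. The level of Igf1, a growth factor that in the adult comes mainly from the liver, was -1.47 and -1.29 in four-factor MEFs at 5% and 21% O2, and 2.92 and 2.41 in untransduced MEFs at 5% and 21% O2. The arrays of the 2 cultures are far apart, with untransduced MEFs at 5% O2 the highest. Igf1 was 20.9-fold lower in four-factor MEFs at 5% O2 and 13.0-fold lower at 21% O2. Its 3 probes ran the same way, with differences between -4.83 and -4.37 at 5% O2 and between -4.20 and -3.68 at 21% O2. One of these probes was printed 10 times on each array. Its median signal was 388.1 and 420.6 intensity units in four-factor MEFs at 5% and 21% O2, and 6043 and 3819 in untransduced MEFs at 5% and 21% O2, where 9 spots were kept on each array. Its SD over spots was at most 0.067 log2 units. At 5% against 21% O2, Igf1 differed by -0.18 in four-factor MEFs, where its probes disagreed in sign. The 2 brighter probes lay at -0.18 and -0.12, and the dimmest at 0.02, with signals of only 16.3 and 15.9 units at 5% and 21% O2. In untransduced MEFs Igf1 differed by 0.50, and all 3 probes were higher, by 0.50 to 0.66.

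Igf2, the main fetal growth factor of the family and an imprinted gene expressed from the paternal copy, had a level of 4.44 and 4.96 in four-factor MEFs at 5% and 21% O2. In untransduced MEFs its level was 7.17 and 6.94 at 5% and 21% O2. It was far above background throughout, and was 6.61-fold lower in four-factor MEFs at 5% O2 and 3.93-fold lower at 21% O2. Both of its probes ran this way. With oxygen, 5% minus 21%, they differed by -0.57 and -0.52 in four-factor MEFs and by 0.23 and 0.48 in untransduced MEFs. The 10 spots of the brightest probe had an SD of 0.051 and 0.046 log2 units in four-factor MEFs at 5% and 21% O2, and of 0.093 and 0.083 in untransduced MEFs. H19, the imprinted noncoding RNA that neighbours Igf2 and is expressed from the maternal copy, was also lower in four-factor MEFs, with differences of -3.81 at 5% O2 and -3.77 at 21% O2. With oxygen, 5% minus 21%, H19 differed by 0.48 in four-factor MEFs and 0.53 in untransduced MEFs.

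**Figure D1:**
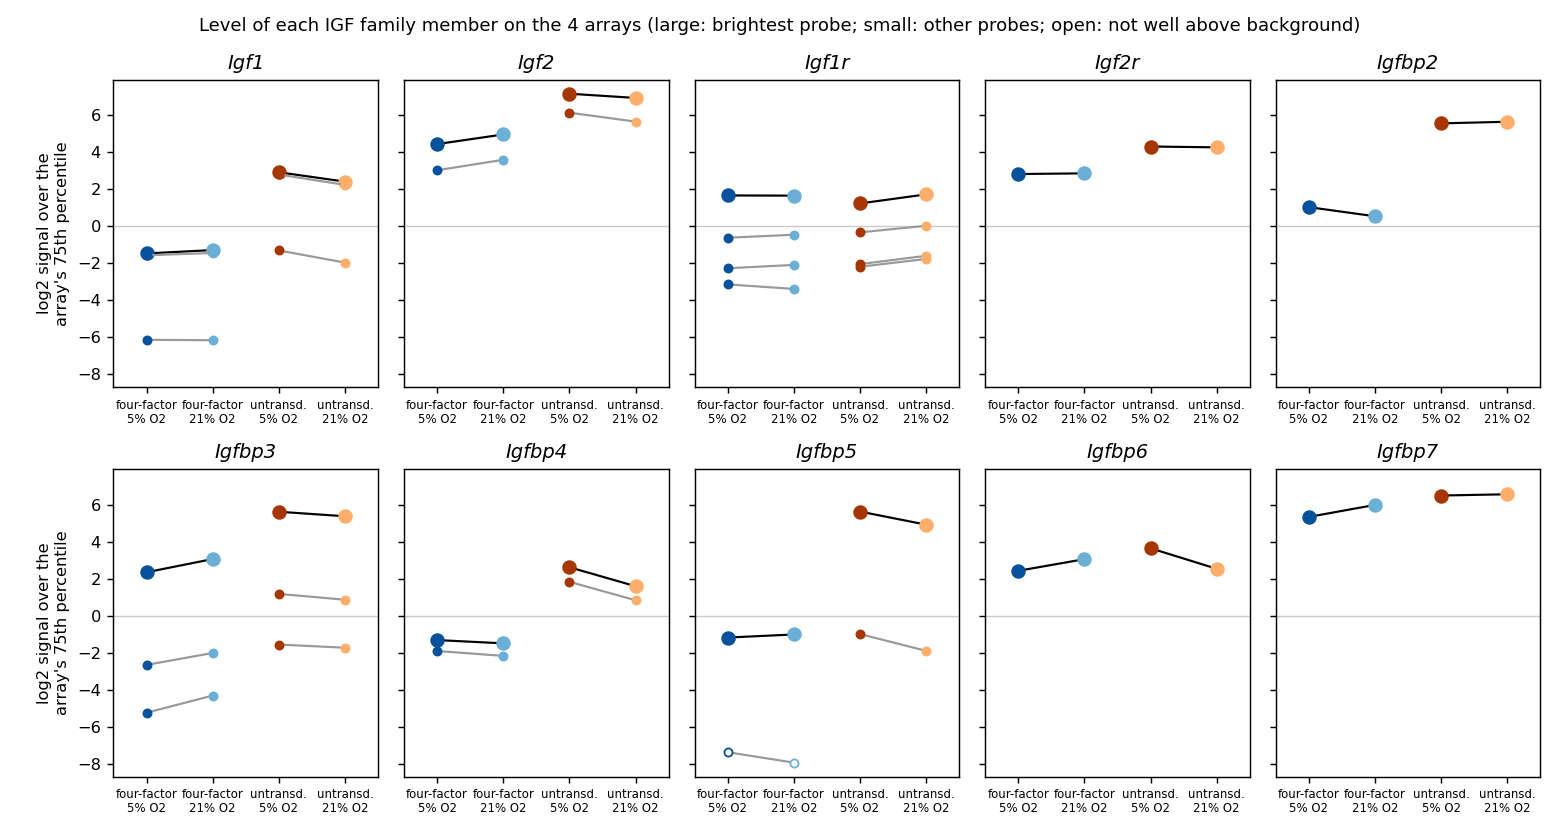
Level of each member on the 4 arrays, as log2 signal over the 75th percentile of the array, 1 panel per gene. Large points are the brightest probe, small points the other probes, open points probes not well above background; lines join the 2 arrays of a culture. By the brightest probes, Igfbp5 has the widest range, from -1.19 to 5.63, and Igf1r the narrowest.

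Between the cultures the receptors differed less than the ligands. Igf1r, the signalling receptor, had a level of 1.67 and 1.66 in four-factor MEFs at 5% and 21% O2, and 1.23 and 1.72 in untransduced MEFs at 5% and 21% O2. The untransduced array at 5% O2 lay below the other 3, which were within 0.07 of each other, less than the spread of replicate spots. Igf1r differed with oxygen by -0.49 in untransduced MEFs, and its 4 probes lay between -0.49 and -0.36. In four-factor MEFs the brightest probe differed by 0.01 and the 4 probes disagreed in sign. Between the cultures the brightest probe differed by 0.43 at 5% O2, but the other 3 probes were on the lower side, down to -0.95. At 21% O2 all 4 were on the lower side, from -1.62 to -0.07. The -0.95 and the -1.62 are from the dimmest probe, the only 1 of the 4 not listed with a RefSeq transcript. The others lay between -0.29 and 0.43 at 5% O2 and between -0.49 and -0.07 at 21% O2. The direction of Igf1r between the cultures thus depends on the probe at 5% O2.

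Igf2r, the clearance receptor for IGF2, is measured by 1 probe. Its level was 2.82 and 2.86 in four-factor MEFs at 5% and 21% O2, and 4.31 and 4.27 in untransduced MEFs at 5% and 21% O2. The cultures did not overlap, and within each the oxygen levels lay within 0.05, less than the spread of replicate spots. Igf2r was 2.81-fold lower in four-factor MEFs at 5% O2 and 2.65-fold lower at 21% O2, and its upstream window is the one with 4 ACGTG matches.

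Among the binding proteins Igfbp5 and Igfbp2 stood furthest apart between the cultures. They are neighbours on chromosome 1, on opposite strands. The level of Igfbp5, a binding protein of mesenchyme that also attaches to extracellular matrix, was -1.19 and -1.02 in four-factor MEFs at 5% and 21% O2. In untransduced MEFs it was 5.63 and 4.92 at 5% and 21% O2. Igfbp5 was 112-fold lower in four-factor MEFs at 5% O2, with 22 of 15506 genes at least as far in that direction, itself included, and 61.3-fold lower at 21% O2, with 19 of 15277. On the four-factor arrays its second probe was not well above background, and was there at least 59.7-fold lower at 5% O2 and at least 30.8-fold lower at 21% O2. With oxygen, 5% minus 21%, Igfbp5 differed by -0.17 in four-factor MEFs, and by 0.71 in untransduced MEFs, where its second probe differed by 0.91.

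Igfbp2, a binding protein abundant in the embryo, had a level of 1.03 and 0.54 in four-factor MEFs at 5% and 21% O2, and 5.56 and 5.65 in untransduced MEFs at 5% and 21% O2. It was 23.1-fold lower in four-factor MEFs at 5% O2 and 34.5-fold lower at 21% O2. It is the only member with a counted difference smaller at 5% than at 21% O2. With oxygen, 5% minus 21%, it differed by 0.49 in four-factor MEFs and by -0.09 in untransduced MEFs.

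Igfbp3, the main carrier of IGFs in blood, had a level of 2.34 and 3.06 in four-factor MEFs at 5% and 21% O2, and 5.62 and 5.37 in untransduced MEFs at 5% and 21% O2. All arrays were well above background for its 3 probes, and the four-factor array at 5% O2 was the lowest. Igfbp3 was 9.66-fold lower in four-factor MEFs at 5% O2 and 4.97-fold lower at 21% O2. Its probes gave oxygen differences, 5% minus 21%, of -0.93 to -0.64 in four-factor MEFs and 0.17 to 0.31 in untransduced MEFs, so all 3 were on opposite sides in the 2 cultures.

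Igfbp4, which sequesters IGFs and is cleaved by the protease PAPP-A, had a level of -1.32 and -1.50 in four-factor MEFs at 5% and 21% O2. In untransduced MEFs it was 2.62 and 1.59 at 5% and 21% O2. The untransduced array at 5% O2 was the highest. Igfbp4 was 2.04-fold higher at 5% than at 21% O2 in untransduced MEFs, a log2 difference of 1.03, and its second probe lay just under 2-fold. In four-factor MEFs its oxygen difference, 5% minus 21%, was 0.18. It was 15.3-fold lower in four-factor than in untransduced cells at 5% O2 and 8.51-fold lower at 21% O2.

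Igfbp6, which prefers IGF2 over IGF1, was the exception. Its level was 2.42 and 3.05 in four-factor MEFs at 5% and 21% O2, and 3.64 and 2.53 in untransduced MEFs at 5% and 21% O2. The cultures overlap, because the order of the oxygen levels is opposite in them. Igfbp6 was 2.16-fold higher at 5% than at 21% O2 in untransduced MEFs, while its difference in four-factor MEFs, 5% minus 21%, was -0.63. Four-factor MEFs were therefore 2.33-fold lower than untransduced MEFs at 5% O2 and 1.43-fold higher at 21% O2. It is measured by 1 probe.

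Igfbp7, the low-affinity relative, had a level of 5.34 and 5.98 in four-factor MEFs at 5% and 21% O2, and 6.49 and 6.56 in untransduced MEFs at 5% and 21% O2. The four-factor array at 5% O2 was the lowest of the 4, and the untransduced arrays lay within 0.07 of each other. Igfbp7 was 2.23-fold lower in four-factor MEFs at 5% O2, and 1.49-fold lower at 21% O2. With oxygen, 5% minus 21%, it differed by -0.65 in four-factor MEFs and -0.07 in untransduced MEFs.

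**Figure D2:**
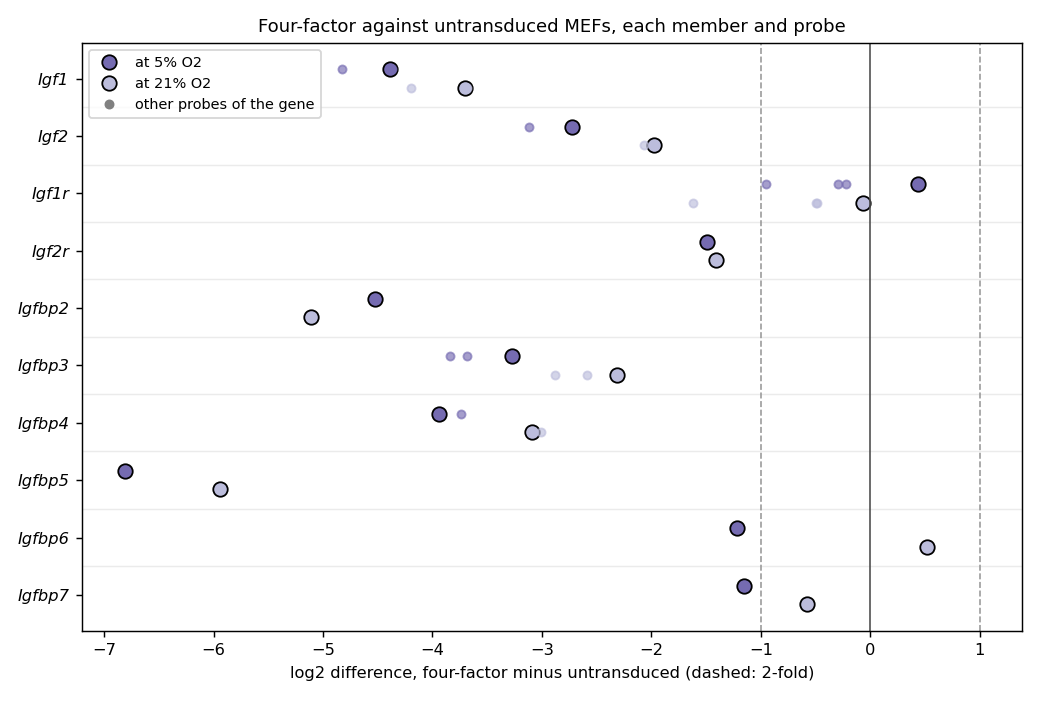
Log2 difference of four-factor minus untransduced cells for each member, at 5% O2 and at 21% O2; large points are the brightest probe, small points other probes, and probes not well above background are left out. Dashed lines mark 2-fold. Igfbp5 lies at -6.81 and -5.94, and Igfbp6 has a negative difference at 5% O2 and a positive one at 21% O2.

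By their brightest probes, 9 of the 10 members were at least 2-fold lower in four-factor MEFs at 5% O2, where 20.0% of the 15506 genes measured were lower by that rule. None of the members was at least 2-fold higher, against 17.1% of genes. At 21% O2, 7 members were at least 2-fold lower, against 16.6% of 15277 genes, and none was higher, against 11.8%. The members' median difference was -3.00 at 5% O2 and -2.14 at 21% O2, against -0.02 over all genes in both. Igf1r was the member outside these calls at 5% O2, and Igf1r, Igfbp6 and Igfbp7 at 21% O2. These comparisons use the same arrays as the oxygen comparisons and are not independent of them.

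Scaling on 8 spike-in probes, chosen after the data were seen, moved the median over all genes by 0.71 log2 units at 5% O2 and 0.50 at 21% O2. It split the 2-fold calls into 5882 higher and 1599 lower at 5% O2, in place of 2648 and 3097, and into 4023 and 1487 at 21% O2, in place of 1807 and 2536. Scaling on the array median moved it by 0.17 at 5% O2 and 0.15 at 21% O2, with 3240 higher and 2647 lower at 5% O2 and 2349 and 2151 at 21% O2. Igf1, Igf2, Igfbp2, Igfbp3, Igfbp4 and Igfbp5 stayed at least 2-fold lower in four-factor MEFs under both of these scalings, while Igfbp7 at 5% O2 passed 2-fold under neither. With the spike-in probes Igf2r was at -0.78 at 5% O2 and -0.90 at 21% O2, and Igfbp7 at -0.45 at 5% O2. Igfbp6 was then at -0.51 at 5% O2 and 1.02 at 21% O2, and Igf1r was at 1.14 at 5% O2.

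Few members passed 2-fold with oxygen. In four-factor MEFs none of the 10 was at least 2-fold higher at 5% O2, against 1.25% of the 18006 genes measured, and none at least 2-fold lower, against 1.07%. The members on the lower side were 7, against 51.8% of genes, and on the higher side 3, against 48.2%. Their median was -0.17, against -0.01 over all genes. In untransduced MEFs Igfbp4 and Igfbp6 were at least 2-fold higher, 2 of 10 members, against 2.54% of 15255 genes. None was at least 2-fold lower, against 1.72%. The members on the higher side were 7, against 44.8% of genes, and on the lower side 3, against 55.2%. Their median was 0.24, against -0.04 over all genes. In that comparison 300 genes differed upward at least as far as Igfbp6 and 365 as far as Igfbp4, each member included.

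With spike-in scaling the median over all genes moved by 0.12 in four-factor and -0.09 in untransduced MEFs. The calls then split into 303 higher and 125 lower in four-factor MEFs, in place of 225 and 193, and into 315 and 325 in untransduced MEFs, in place of 388 and 263. Normexp correction gave 98 higher and 37 lower in four-factor MEFs. Igfbp4 differed by 0.94 in untransduced MEFs under spike-in scaling, just under 2-fold.

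The oxygen differences were then subtracted from each other, four-factor minus untransduced. Igfbp6 had the largest gap of the members, -1.74, and 83 of 14981 genes measured on all arrays, or 0.554%, lay at least as far on that side. Igfbp3 followed with -0.96 (3.23% of genes), Igfbp5 with -0.88 (4.02%) and Igfbp4 with -0.85 (4.29%). Igf2 had -0.75, Igf1 -0.69 and Igfbp7 -0.58. Igf1r and Igfbp2 lay on the other side, at 0.50 and 0.58, and Igf2r was near 0, at -0.083. These gaps rest on 4 arrays with no replicate and were not tested.

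**Figure D3:**
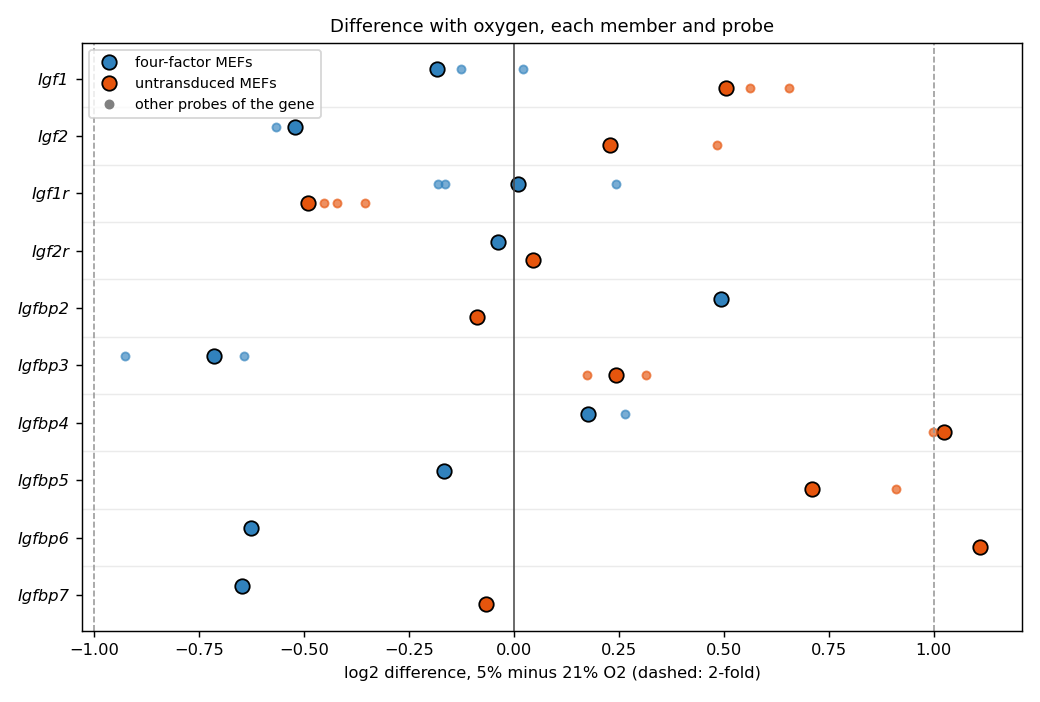
Log2 difference, 5% minus 21% O2, for each member in four-factor MEFs and in untransduced MEFs; large points are the brightest probe, small points other probes. Dashed lines mark 2-fold. Igfbp6 lies at -0.63 in four-factor MEFs and 1.11 in untransduced MEFs.

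Markers of several cell types were read on the same arrays, and their lists differed in direction between the cultures. Of 16 macrophage markers, 7 were well above background on each four-factor array and 14 on each untransduced array. Adgre1, Mrc1, C1qa and Ptprc were among the 9 that were not in four-factor MEFs. Itgam went the other way and was well above background on the four-factor arrays only. Cd68 differed by -1.04 at 5% O2 and 0.85 at 21% O2, four-factor minus untransduced. The summed signal of the 16 markers, in multiples of the array's 75th percentile, was 0.776 and 0.948 in four-factor MEFs at 5% and 21% O2. In untransduced MEFs it was 37.7 and 17.1 at 5% and 21% O2. Lyz2, a lysozyme, made up 81.6% and 84.6% of the untransduced sums, and without it they were 6.93 and 2.62. In untransduced MEFs 14 of 14 measured macrophage markers were on the higher side at 5% O2, 13 of them at least 2-fold, with a median of 1.43. The 8 adipocyte markers summed to 2.43 and 2.34 in four-factor MEFs at 5% and 21% O2, and to 89.8 and 40.1 in untransduced MEFs. Lpl, lipoprotein lipase, made up 95.7% and 95.1% of the untransduced sums, and Cfd was not well above background on any array. Between the cultures the measured adipocyte markers had a median difference of -1.71 at 5% O2, with 4 of 5 at least 2-fold lower, and of -1.46 at 21% O2, with 2 of 4. Of the 13 fibroblast markers, 9 were at least 2-fold lower in four-factor MEFs at each oxygen level, with a median of -1.78 at both. With oxygen the fibroblast markers had a median of -0.21 in four-factor MEFs, where all 13 were on the lower side, and of -0.09 in untransduced MEFs. Skeletal muscle markers summed to 15.2 and 26.3 in four-factor MEFs at 5% and 21% O2, against 11.9 and 38.1 in untransduced MEFs. Actc1 was at least 65.1% of each sum, Myog, Myf5 and Ckm were not well above background on any array, and the median difference between the cultures was 0.20 at 5% O2 and -0.69 at 21% O2. Endothelial markers summed to 1.48 and 1.16 against 0.707 and 0.428, in the same array order. Tek led each of these sums, and Pecam1 and Tie1 were not well above background on any array. Of the 3 markers measured between the cultures, 2 were higher in four-factor MEFs at 5% O2 and 1 at 21% O2, with medians of 0.77 and -0.27. Cldn5 was at least 2.94-fold higher in four-factor MEFs at 5% O2. Cartilage and bone markers summed to 51.5 and 88.4 against 19.8 and 56.5. Spp1 was at least 51.2% of each sum. Between the cultures 4 of these markers were higher and 3 lower in four-factor MEFs at each oxygen level, with a median of 0.10 at both. The part of these markers' cells in the IGF values was not tested.

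**Figure D4:**
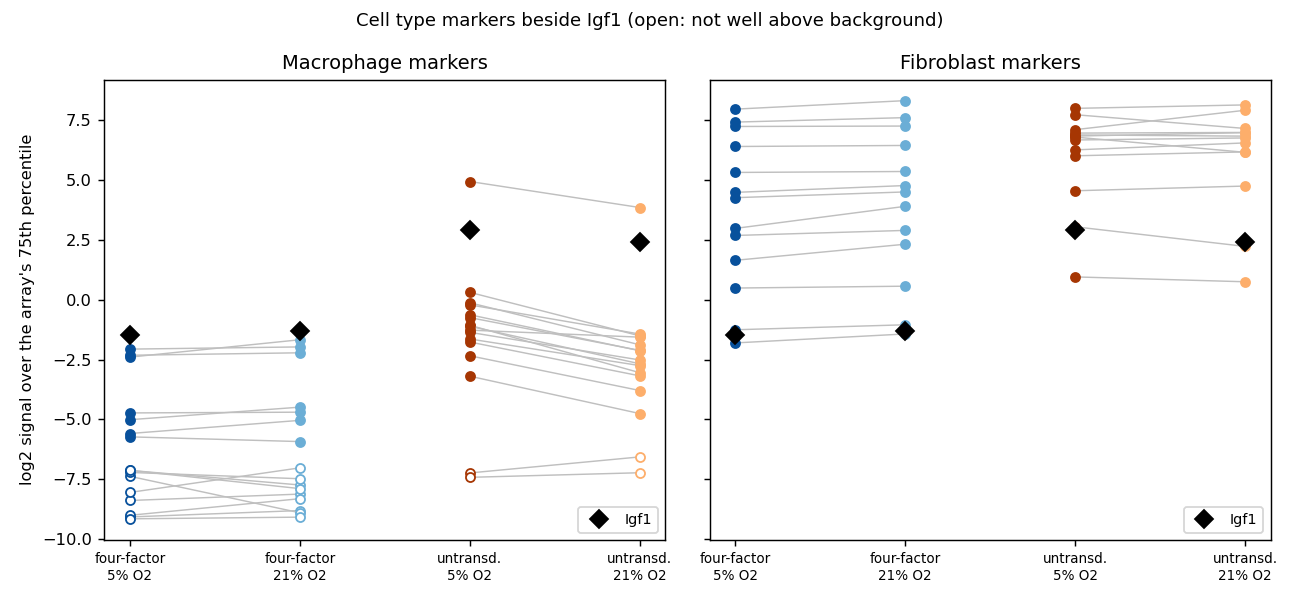
Level of each of the 16 macrophage markers and 13 fibroblast markers on the 4 arrays, as log2 signal over the 75th percentile of the array, with Igf1 as black diamonds; open points are not well above background, and lines join the arrays of a culture. Levels of different genes are not comparable. Most macrophage markers are higher on the untransduced arrays, and 14 of 14 measured there are higher at 5% than at 21% O2, with a median of 1.43. Igf1 differs there by 0.50, and a link between Igf1 and these markers was not tested.

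The rest of the pathway was read from a list of 31 genes, of which 30 were found on the array. It was chosen with earlier results of these data known. It covers other binding proteins, the proteases and their inhibitors, insulin receptors, adaptors, the PI3K-AKT kinases, and RNA-binding proteins of the Igf2 transcript. Between cultures 23 could be measured, with medians of -0.25 at 5% O2 and -0.27 at 21% O2. At 5% O2, 4 were at least 2-fold higher and 6 lower in four-factor MEFs, and at 21% O2, 3 higher and 5 lower. Of all genes 17.1% were higher and 20.0% lower at 5% O2, and 11.8% and 16.6% at 21% O2, so the list's counts lie near the background, and the genes below are given as single values. Pappa, the protease that releases IGF from IGFBP4, was lower, at -3.04 at 5% O2 and -2.25 at 21% O2. Stc2, stanniocalcin 2, an inhibitor of that protease, was higher by 1.68 at both. Htra1, a secreted serine protease that can cleave binding proteins, was lower, at -3.34 and -2.76 at 5% and 21% O2.

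Inside the cell, Irs1, the adaptor that couples IGF1R to PI3K, was lower, at -2.17 at 5% O2 and -1.74 at 21% O2. Pik3r1, the regulatory subunit of PI3K, was lower, at -3.29 and -2.19 in the same order. Akt2, a kinase downstream of PI3K, was lower, at -1.34 at 5% O2 and -0.68 at 21% O2. Grb14, an adaptor that binds and restrains insulin receptors, was higher by 1.85 and 1.67 at 5% and 21% O2. The Igf2 messenger binding proteins Igf2bp1 and Igf2bp2 were higher by 1.96 and 1.05 at 5% O2, and by 1.38 and 0.82 at 21% O2. Foxo3, a transcription factor restrained by AKT, was at least 2.04-fold higher in four-factor MEFs at 5% O2. Igfals, which carries IGF with IGFBP3 in blood, was at least 8.03-fold lower there, and in untransduced MEFs it was at least 2.06-fold higher at 5% than at 21% O2. Igfbp1, Igfbpl1 and Pappa2 were not well above background on any array.

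With oxygen no gene of this list that could be measured on both arrays passed 2-fold in either culture, 26 in four-factor MEFs and 23 in untransduced MEFs. Stc2 differed by 0.70 in each, 5% minus 21%. Pappa differed by -0.71 in four-factor MEFs and by 0.09 in untransduced MEFs, and Pik3r1 by -0.41 and 0.70.

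**Figure D5:**
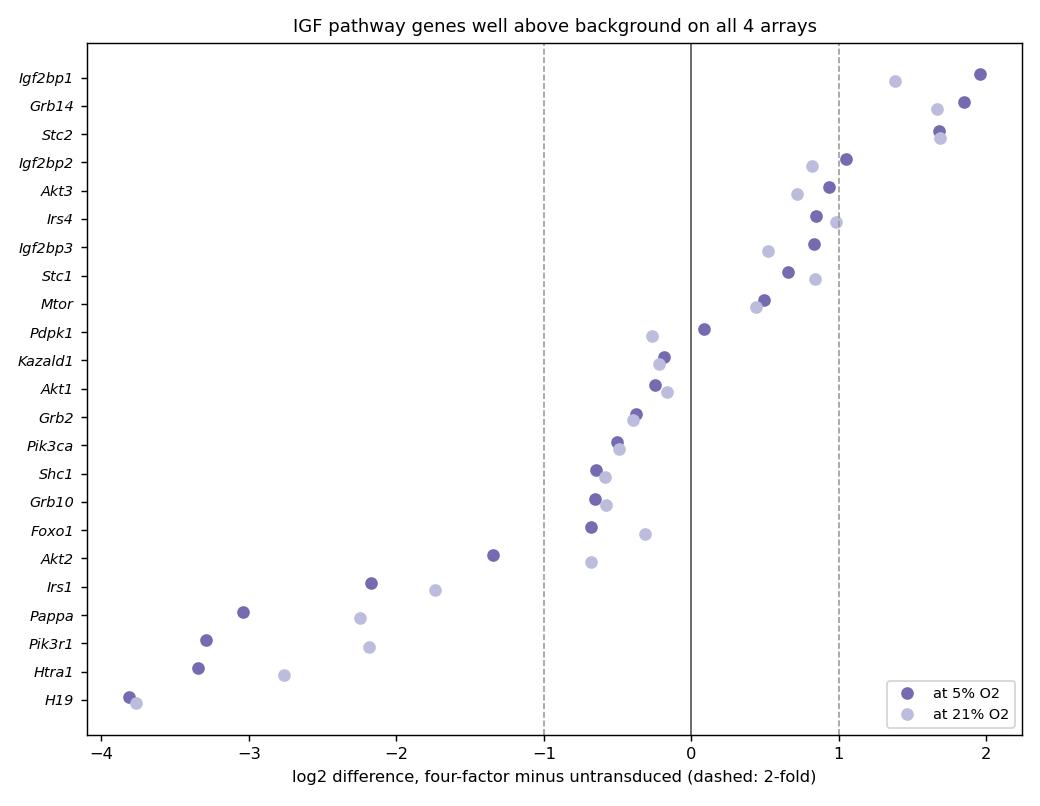
Log2 difference of four-factor minus untransduced cells for the 23 IGF pathway genes well above background on all 4 arrays, at 5% and at 21% O2; dashed lines mark 2-fold. H19, Htra1, Pik3r1, Pappa and Irs1 lie below -1 at both oxygen levels, and Stc2, Grb14 and Igf2bp1 above 1.

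The probes of the members lie, in the mouse build mm8 used by the array files, at chr10:87343472-87343531 for Igf1 and chr7:142460185-142460245 for Igf2. They lie at chr7:68105625-68105684 for Igf1r, chr1:72785310-72785369 for Igfbp2 and chr11:7106594-7106653 for Igfbp3. Further brightest probes lie at chr11:98868110-98868169 for Igfbp4, chr1:72791462-72791521 for Igfbp5, chr15:101977366-101977426 for Igfbp6 and chr5:78424105-78424164 for Igfbp7. The Igf2r probe is listed at chr17:12525745-12525755, only 11 bases, and whether the probes are exonic was not analysed here.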

How the data were processed

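Per the labels' protocols, Trizol RNA was labelled with the Quick Amp kit (protocol 5.7). Per the file headers, Feature Extraction 9.5.3.1 read arrays of design 014868 and the probe positions are those of NCBI 36 (mm8). The authors deposited the processed signal, an intensity with background subtracted within each array and no scaling between arrays. The deposited value table holds log2 values that equal log2 of the processed signal minus its 75th percentile, within 0.01 for at least 99.9% of probes. Its column medians were -3.86, -3.86, -3.69 and -3.70 in four-factor MEFs at 5% and 21% O2 and untransduced MEFs at 5% and 21% O2, and its probes were not centred.

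Spots marked non-uniform or population outliers (78, 65, 115 and 112 in the same array order) were dropped, spots of a probe averaged, and values taken as log2 minus the array's 75th percentile. Each gene took the value of the probe with the highest mean level over the 4 arrays, called its brightest. A gene well above background on 1 array only was given a lower bound on its fold difference. For that bound its signal on the other array was replaced by the higher of 2 values. These were its own signal there and the dimmest signal still well above background (9.64, 9.86, 24.9 and 26.5 intensity units in the same order). The counting code was run on simulated data with changes well past 2-fold in genes well above background. Such changes pass the rule by design, so that run says nothing about calls near 2-fold. Old gene names were updated by probe accession to the RefSeq table of GRCm38.p6, used for names, neighbours and promoter sequences. Of the 20 member probes, 15 matched that table, as did 24496 probes in all.

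The members and lists were chosen with earlier results of these data known. The genes named are all 10 members, and from the pathway list those at least 2-fold apart or past 2-fold by bound. Igfbp1, Igfbpl1 and Pappa2 fall outside this rule and are named because they were not measured. The other genes named are the transduced genes and cell type markers. Stc2, Pappa, Pik3r1 and H19 were named for oxygen after their values were seen. Alternatives were normexp background correction (limma 3.58.1 in R 4.3.3, offset 50), other scalings, another choice of probe and no filter on dim probes. Python 3.11.15 with pandas 2.3.3 and numpy 2.4.6 was used. Exon, intron and UTR positions were not analysed here.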

Additional observations from a re-analysis of the deposited data

Results flagged for a closer look

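In 8 members the oxygen difference, 5% minus 21%, had opposite signs in the 2 cultures. The share of all genes with opposite signs was not counted, so this number has no background beside it. Under some alternative processing the sign changed in four-factor MEFs for Igf1r, Igf2r and Igfbp5, and in untransduced MEFs for Igf2r and Igfbp2. For Igfbp5 this was the mean over probes, which includes a probe not well above background on the four-factor arrays. Igfbp7, not among the 8, changed sign in untransduced MEFs with quantile normalization. It then lay at 0.046 there and at -0.615 in four-factor MEFs. The four-factor difference minus the untransduced one was -1.74 for Igfbp6, -0.96 for Igfbp3, -0.88 for Igfbp5, -0.75 for Igf2, -0.69 for Igf1 and -0.083 for Igf2r, and 0.50 for Igf1r and 0.58 for Igfbp2. In 4 of them, Igf1, Igf2, Igfbp3 and Igfbp6, each culture's difference was larger than the SD of a difference between 2 replicate spots. That SD was 0.17 log2 units in four-factor and 0.10 in untransduced MEFs. The share of all genes passing this rule was not counted, so the 4 have no background beside them either. Those 4 were on the lower side at 5% O2 in four-factor MEFs and on the higher side in untransduced MEFs. Igf1 passed narrowly in four-factor MEFs, at -0.18. Its probes disagreed in sign there, with the dimmest at 0.02. The Igf1 value lay between -0.18 and -0.066 over the alternatives, below the spot SD with normexp correction, the mean over probes and spike-in scaling. None of these gaps was tested, since each condition had 1 array. Macrophage markers had a median oxygen difference of -0.10 in four-factor and 1.43 in untransduced MEFs, and their part in these values was not tested.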

How the results depend on the processing

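The 18 member differences counted as 2-fold were recomputed under 8 alternatives. None changed sign, and 13 stayed counted under all. Not all alternatives could move a member. Without the filter the members keep their values, since each brightest member probe was well above background on every array. The deposited values are nearly the same quantity, and keeping outlier spots changed no member call. The calls that were lost were lost under spike-in or median scaling. Of the 22 not counted, 8 changed sign under some setting. Among them were Igf1r between the cultures and Igfbp5 with oxygen in four-factor MEFs (0.20 as the mean over probes, against -0.17). That mean includes the second Igfbp5 probe, which was not well above background on either four-factor array. Normexp correction gave 98 genes higher and 37 lower at 5% O2 in four-factor MEFs, and 196 and 132 in untransduced MEFs. Without the filter on dim probes these were 907 and 908, and 1076 and 1110, and between the cultures 4070 higher and 10057 lower at 5% O2, and 3050 and 9852 at 21% O2. Spike-in scaling, chosen after the data were seen, gave 125 genes lower at 5% O2 in four-factor MEFs. Between the cultures it gave 5882 higher and 1599 lower at 5% O2, and 4023 and 1487 at 21% O2. It left 1 member higher with oxygen in untransduced MEFs, Igfbp6, and put 1 member higher between the cultures at each oxygen level, Igf1r at 5% O2 and Igfbp6 at 21% O2. The causes were not tested. No paired analysis was possible because each condition had 1 array, and the number of arrays limits every value.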
